A study of Mus musculus with 45 samples.

Results

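Carboxylesterases and arylacetamide deacetylase were followed here in small intestinal tuft cells of mice fed a low-fat or a high-fat diet. The 9 genes were Ces1d, Ces1e, Ces1f and Ces1g of the Ces1 family, Ces2a, Ces2b, Ces2c and Ces2e of the Ces2 family, and Aadac, out of 47729 genes in the count tables. They were picked by name after their difference between the diets was known, so the diet contrasts of these genes are given as a description and not as a test. All 9 were among the 14020 genes tested, which had counts above 5 reads in 6 or more of 45 libraries.

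Carboxylesterases are serine hydrolases of the endoplasmic reticulum that split esters, amides and thioesters. In gut and liver they act on ester drugs and on lipid esters such as triacylglycerols and retinyl esters. Aadac is a membrane-bound hydrolase of the same fold that removes acetyl groups from drugs and is known to take part in lipid mobilization in liver. In the small intestine absorptive enterocytes are the cells best known for these enzymes, whereas tuft cells are rare chemosensory cells.

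Bulk RNA sequencing was performed on tuft cells sorted from 45 male C57BL/6J mice, 1 mouse per library. The mice were 5 weeks old at arrival, received chow for 1 week, were kept at 30 °C, and were then fed a reference diet with 10% fat (RFD) or a high-fat diet with 60% fat (HFD). The groups held 11 RFD and 11 HFD mice at 9 weeks and 11 RFD and 12 HFD mice at 22 weeks. The labels give 9 weeks for all 45 libraries and divide them into a short and a long feeding set. The long set was taken as the mice that the study's methods describe as fed for 22 weeks, so feeding time and library set cannot be told apart. Cells were sorted as live EpCAM+ Siglec-F+ cells. The methods describe the gate as CD45+ in one place and as excluding CD45+ cells in another.

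Total reads ranged from 189340 to 4690213 per library (median 1633638), and 2 libraries at 9 weeks, RFD mouse 40 and HFD mouse 50, had under 500000. All 20 tuft cell markers had reads in every group, but their summed level fell below 5000 CPM in 3 RFD and 5 HFD libraries at 9 weeks and in 1 library of each diet at 22 weeks. CPM are reads scaled to a library total that TMM, a normalization between libraries, had adjusted, so they do not add up to a fixed sum. At 9 weeks the median tuft marker sum was 18510 CPM in RFD and 7654 CPM in HFD mice, against 20400 and 15980 CPM at 22 weeks. Markers of other epithelial cells were present in all libraries. The 20 enterocyte markers summed to between 6504 and 43280 CPM per library, and the 7 Paneth cell markers to between 27.3 and 668400 CPM, the highest in HFD mouse 80 at 9 weeks. Hepatocyte markers, for a second tissue rich in carboxylesterases, had group medians of 1.96 to 6.64 CPM.

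The genes occupy 3 places in the genome (GRCm38, GENCODE M21). The 4 Ces1 genes lie next to each other on the minus strand at chr8:93166068-93337308, a stretch of 171.2 kb in which Ces1f takes up chr8:93256236-93279747, and each has 14 exons. The 4 Ces2 genes lie on the plus strand at chr8:104734003-104934672, a stretch of 200.7 kb with Ces2c at chr8:104847068-104854483, and each has 12 exons. Aadac lies on the plus strand at chr3:60025717-60040160 and has 5 exons.

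The coding sequences show how far the family members can be told apart by sequencing reads. The stretch around the codons of the catalytic serine, the residue that attacks the ester bond, is given here for all 9 genes as 63 coding bases, read 5′ to 3′ from the GENCODE M21 transcripts. Capitals mark the 15 bases of the glycine-any-serine-any-glycine motif.
Ces1d: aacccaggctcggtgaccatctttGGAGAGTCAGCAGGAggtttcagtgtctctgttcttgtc
Ces1e: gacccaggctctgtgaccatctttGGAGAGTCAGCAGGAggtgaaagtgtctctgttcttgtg
Ces1f: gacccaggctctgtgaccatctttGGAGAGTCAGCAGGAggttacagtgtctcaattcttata
Ces1g: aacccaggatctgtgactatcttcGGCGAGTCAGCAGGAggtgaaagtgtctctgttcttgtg
Ces2a: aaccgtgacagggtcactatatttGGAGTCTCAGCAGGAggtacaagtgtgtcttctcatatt
Ces2b: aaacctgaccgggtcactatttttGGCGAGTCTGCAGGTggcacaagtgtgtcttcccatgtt
Ces2c: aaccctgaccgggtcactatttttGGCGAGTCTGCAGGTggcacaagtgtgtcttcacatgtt
Ces2e: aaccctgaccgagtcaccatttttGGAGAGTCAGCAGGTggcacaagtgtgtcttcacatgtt
Aadac: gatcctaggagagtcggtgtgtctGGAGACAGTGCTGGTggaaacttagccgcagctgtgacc

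The motif itself was identical in Ces1d, Ces1e and Ces1f and in Ces2b and Ces2c. Over the 63 bases Ces2b and Ces2c shared 61, Ces2c and Ces2e shared 59, and Aadac shared 26 to 30 with any carboxylesterase. Over the whole coding sequence, identity was 74.1 to 81.6% between Ces1 genes, 82.2 to 91.3% between Ces2 genes, 54.9 to 57.5% between the families and 41.8 to 44.1% between Aadac and the carboxylesterases, with gaps counted as differences. The coding sequence of Aadac is shorter, with 1197 bases against 1671 to 1698. Over aligned bases alone, Aadac shared 59.2 to 62.7% with the carboxylesterases, in the same range as the 59.55 to 61.8% between the families. Ces2b and Ces2c were the closest pair.

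Reads that match several genes were divided among them when the authors counted with RSEM, so the share of each transcript that also occurs elsewhere bears on its count. Of all stretches of 50 bases in the Ces2c transcript, 42.2% were also found in transcripts of another gene, mostly in the pseudogenes Ces2d-ps and Gm8798. For Ces2a the share was 22.2%, nearly all of it in Gm7208, and for Ces2b it was 9.79%. In the other 6 genes it was between 0 and 3.36%, with 1.60% for Ces1f and 0 for Aadac. With stretches of 100 bases the shares were 16.0% for Ces2c and 10.8% for Ces2a and at most 0.09% for the remaining genes. Ces2c was the only member with counts that were not whole numbers (beyond 0.001 of a whole number), in 8 of the 45 libraries. Values of Ces2c, Ces2a and Ces2b are therefore uncertain. Since most of the shared stretches lie in genes outside the 9, the sums over the families given here carry the same uncertainty. Ces2d-ps itself had a group median of 0 CPM in all 4 groups.

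Levels of different genes were compared only per transcript length, in TPM (transcripts scaled by length to a fixed total per library). In RFD mice at 9 weeks Ces2e was the highest member, with a mean of 147.0 ± 74.2 TPM (SD, n = 11), which was 43.6% of the mean sum over the 9 genes. Ces2e was above Aadac, the next in order, in 10 of 11 mice. Aadac had 83.7 ± 54.1 TPM, and Ces2c and Ces2a followed with 46.79 ± 31.03 and 36.94 ± 22.99 TPM. The Ces1 genes were lower. Ces1f had 15.5 ± 11.4 TPM, Ces1d and Ces1e had 3.29 and 2.825 TPM, and neither of these last 2 was above the other more often, with 5 mice each way. Ces1g and Ces2b were close to 0. The TPM of Ces1f did not follow its reads. RFD mouse 1 had 26.4 TPM from 13 reads (8.43 CPM) and mouse 22 had 17.8 TPM from 113 reads (33.85 CPM). In the shallow library of mouse 40, 2 reads gave 29.5 TPM. The mean and rank of Ces1f in this group therefore rest in part on few reads.

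In RFD mice at 22 weeks Ces2e was again first, with 223.7 ± 103 TPM (SD, n = 11) and 45.8% of the sum, and above Ces2c in 11 of 11 mice. The next 3 did not separate. Ces2c, Ces2a and Aadac had medians of 72.9, 64.7 and 63.6 TPM, Ces2c was above Ces2a in 4 of 11 mice and Ces2a above Aadac in 6 of 11.

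On HFD the make-up of the sum was different. At 9 weeks Aadac was the highest member with 274.9 ± 226 TPM (SD, n = 11), 43.1% of the mean sum against 24.8% on RFD, and it was above Ces2e in 10 of 11 mice. At 22 weeks Ces2e was first with 324.4 ± 98.9 TPM (SD, n = 12) and above Aadac, with 272.9 ± 102 TPM, in 9 of 12 mice, and the share of Aadac was 28.8% against 17.1% on RFD. Ces1f made up 6.97% of the sum on HFD against 4.61% on RFD at 9 weeks, and 7.46% against 3.21% at 22 weeks. Its RFD shares rest on few reads, with medians of 13 and 24 reads per library.

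**Figure D1:**
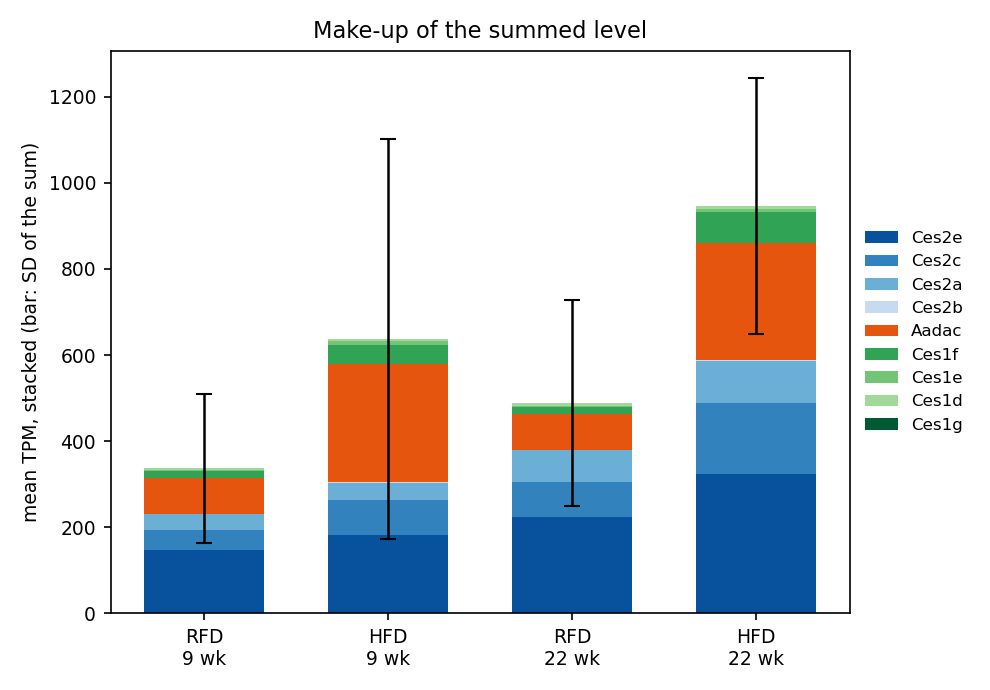
Mean TPM of each of the 9 genes, stacked, in RFD and HFD mice at 9 and 22 weeks (n = 11, 11, 11 and 12), with the bar as the SD of the sum over the 9 genes. Ces2e made up the largest block in 3 of the 4 groups, and Aadac, with 43.1% of the sum, in HFD mice at 9 weeks.

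To compare the diets, CPM values were used, and each gene was fitted together with all 14020 genes by edgeR's quasi-likelihood test within each feeding time, with an adjusted p under 0.1 as the threshold. In bulk libraries fewer cells of a type and less RNA per cell cannot be told apart. At 9 weeks 2 of the 9 genes passed the threshold as higher on HFD (Aadac and Ces1f), beside 2% of all genes tested, and 0 as lower, beside 1.33%. At 22 weeks 3 of 9 passed it as higher (Ces1f, Aadac and Ces2c), beside 0.435% of all genes tested, and 0 as lower, beside 0.357%. Since the genes were chosen with these contrasts known, nothing is read from these shares.

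All 9 fitted differences were above 0 at both times. Over 12 other settings the sign turned at 9 weeks for Ces1d (above 0 in 9 of 12), Ces1g (8 of 12) and Ces2a (11 of 12), and at 22 weeks for Ces1d (9 of 12). In the main fit the differences ranged from 0.26 to 2.19 on the log2 scale at 9 weeks and from 0.22 to 2.78 at 22 weeks. The 2.78 was that of Ces1g, which passed the read filter only through HFD mice at 22 weeks, and Ces1f followed with 2.54. The median of the 9 was 0.93 at 9 weeks and 1.36 at 22 weeks, beside medians over all genes of -0.05 and -0.03. The RFD and HFD groups overlapped for every member at both times.

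**Figure D2:**
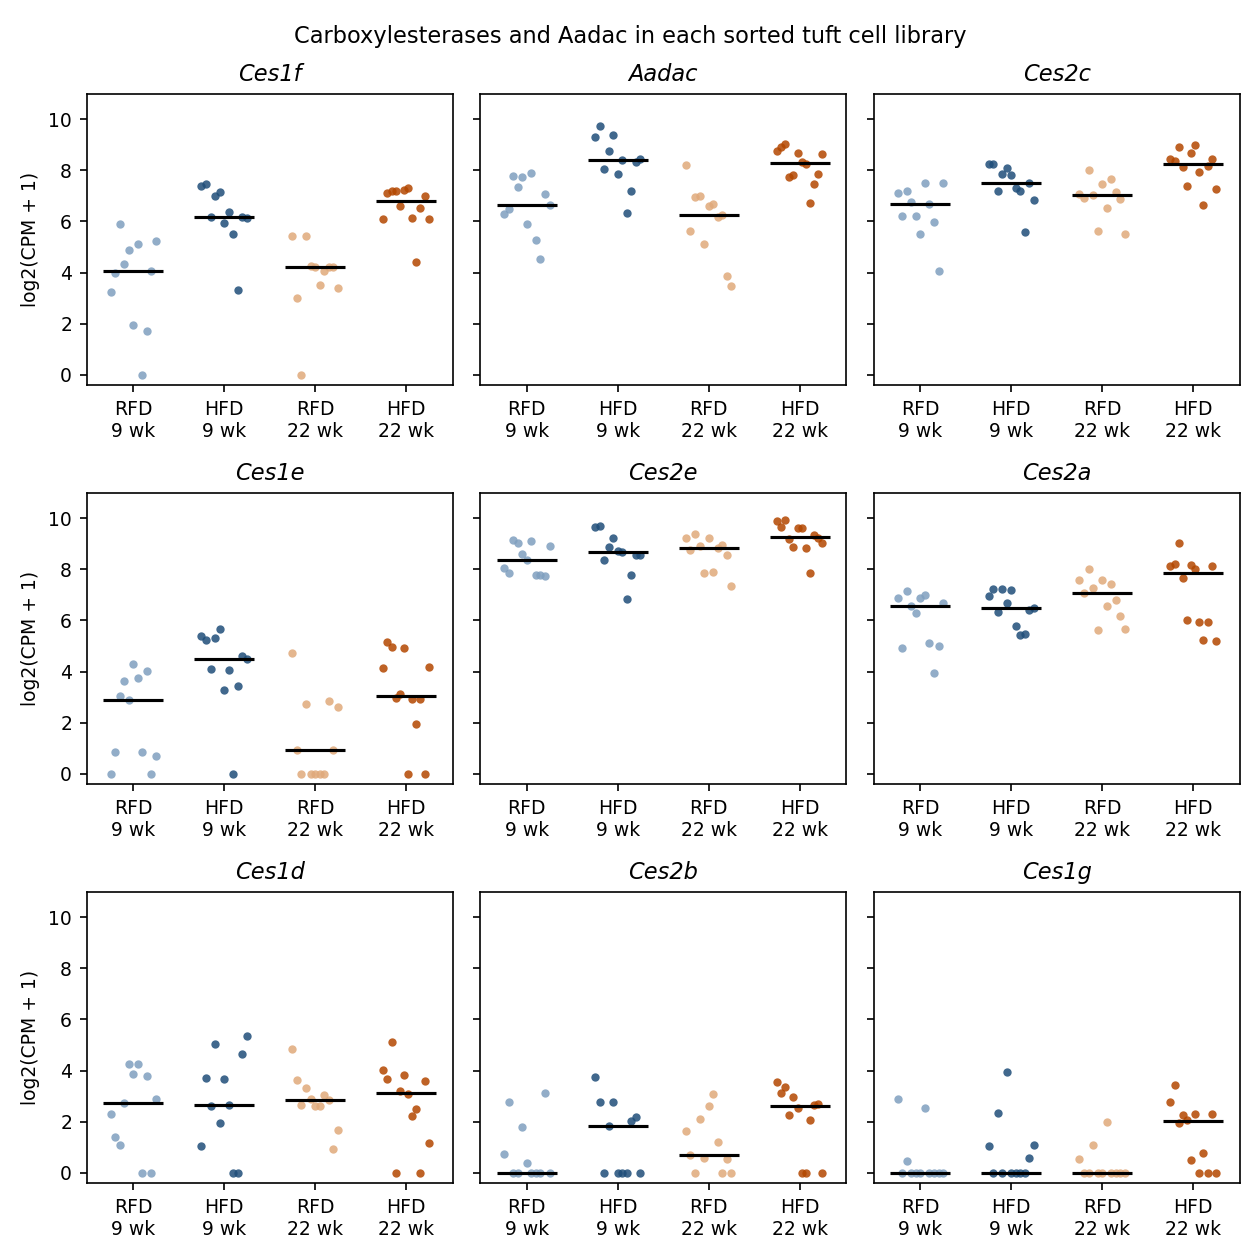
Level of each gene in every library as log2(CPM + 1), by diet and feeding time, with each point 1 mouse and the line the group median (n = 11, 11, 11 and 12). Ces1f and Aadac sat higher on HFD with some overlap, whereas Ces1d and Ces2e overlapped over most of their range.

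Ces1f encodes a microsomal carboxylesterase that is abundant in liver. At 9 weeks it ranged from 0 to 59.2 CPM on RFD with a median of 15.6, and from 8.88 to 173.5 CPM on HFD with a median of 71.8. At 22 weeks it ranged from 0 to 42.6 CPM on RFD with a median of 17.5, and from 20.6 to 158.2 CPM on HFD with a median of 111.6. Of the HFD mice, 9 of 11 at 9 weeks and 11 of 12 at 22 weeks lay above the highest RFD mouse of their time. As a log2 fold change the difference of Ces1f was 2.19 (SE 0.58) and 2.54 (SE 0.39), in the order of the times. The ratio of the means of Ces1f, HFD over RFD, was 4.597 in CPM and 2.86 in TPM at 9 weeks, and 5.87 and 4.50 at 22 weeks. On log2(TPM + 1) limma gave a difference of 1.56 at 9 weeks, which did not pass the threshold, and 2.32 at 22 weeks, which did, whereas with a pseudocount of 0.1 it passed at neither time. Within the 3 series of mouse numbers, a possible batch, the difference in mean log2(CPM + 1) was 2.62, 1.94 and 2.86 at 9 weeks and 3.42, 1.89 and 2.81 at 22 weeks, so Ces1f was higher on HFD in each.

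The other Ces1 genes had few reads. Ces1e had a median of 6.43 CPM in RFD mice and 21.4 CPM in HFD mice at 9 weeks, and of 0.927 and 7.31 CPM at 22 weeks. Its highest RFD values, 18.8 and 25.5 CPM, lay above the HFD median only at 22 weeks, in 1 mouse. Ces1e had log2 fold changes of 1.75 (SE 0.64) and 1.64 (SE 0.80) and passed the threshold at neither time. Ces1d, a lipid droplet and microsomal triacylglycerol hydrolase of liver and fat, had medians of 5.68 and 5.29 CPM at 9 weeks and 6.14 and 7.81 CPM at 22 weeks. For Ces1d 5 of 11 and 7 of 12 HFD mice were above the RFD median, and its log2 fold changes were 0.67 (SE 0.75) and 0.22 (SE 0.56).

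Ces1g, known for a role in hepatic lipid secretion, was at the limit of detection. Its counts above 5 reads were 29, 10, 8, 7 and 8 in HFD mice at 22 weeks and 10 and 16 in RFD mice at 9 weeks. It therefore passed the filter only through the HFD mice at 22 weeks, the group where it was highest. It had reads in 3 RFD and 5 HFD mice at 9 weeks and in 3 RFD and 9 HFD mice at 22 weeks, and its highest value in any library was 14.5 CPM. A count of 3 reads was worth a median of 1.56 to 2.15 CPM in the 4 groups, and up to 22.4 CPM in the shallowest library. At 22 weeks the medians of Ces1g were 0 on RFD and 3.04 CPM on HFD, and the fitted log2 fold change was 2.78 (SE 0.92), which did not pass the threshold. Where Ces1g, Ces1e and Ces2b had no read, they were not detectable at this depth.

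Summed over the 4 Ces1 genes, the level was 35.2 ± 21.9 CPM (SD, n = 11) in RFD mice and 130.0 ± 70.1 CPM in HFD mice (SD, n = 11) at 9 weeks. At 22 weeks RFD mice had 30.4 ± 25.5 CPM (SD, n = 11) and HFD mice 131.5 ± 55.2 CPM (SD, n = 12). The ratio of means was 3.69 and 4.33. Ces1f made up most of it on HFD, with means of 92.2 and 106.1 CPM.

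Aadac ranged at 9 weeks from 21.8 to 239.3 CPM on RFD with a median of 99.1, and from 80.5 to 858.5 CPM on HFD with a median of 333.8. At 22 weeks it ranged from 10.3 to 294.9 CPM on RFD with a median of 75.2, and from 104.8 to 516.4 CPM on HFD with a median of 313.3. In CPM the HFD median was above every RFD mouse in both sets. Of the HFD mice, 3 of 11 and 5 of 12 fell within the RFD range of CPM. In TPM the HFD median was above every RFD mouse at 9 weeks (220.9 against at most 197.4) but not at 22 weeks (265.4 against 289.6). The log2 fold change of Aadac was 1.72 (SE 0.40) at 9 weeks and 1.83 (SE 0.39) at 22 weeks. Its difference within the number series was 2.12, 1.12 and 1.41 at 9 weeks and 1.67, 3.59 and 1.85 at 22 weeks, in mean log2(CPM + 1).

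Of the Ces2 genes, which include the main drug-activating esterases of the gut, Ces2c had the largest difference among the 3 with medians above 10 CPM. At 9 weeks it ranged from 15.6 to 178.7 CPM on RFD with a median of 101.7, and from 47.0 to 301.2 CPM on HFD with a median of 180.4. At 22 weeks it ranged from 44.0 to 259.5 CPM on RFD with a median of 131.5, and from 99.4 to 507.2 CPM on HFD with a median of 306.4. In CPM the HFD median was above every RFD mouse at both times, by a smaller margin at 9 weeks. In TPM the HFD median was below the highest RFD mouse at 9 weeks (80.1 against 103.0) and just above it at 22 weeks (167.4 against 166.5). The log2 fold change of Ces2c was 0.93 (SE 0.31), short of the threshold, and then 1.197 (SE 0.27) at the later time. With limma on TPM, at either pseudocount (1 or 0.1), Ces2c did not pass at 22 weeks. Ces2c was higher on HFD in 3 of 3 number series at both times, by 0.28 to 1.89 at 9 weeks and by 1.04 to 1.45 at 22 weeks.

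Ces2e, the most abundant member on RFD, differed less. Its median at 9 weeks was 330.7 CPM in RFD mice (210.0 to 561.2) and 406.3 CPM in HFD mice (114.6 to 822.4). At 22 weeks it was 456.8 CPM (159.8 to 661.9) and 617.8 CPM (229.5 to 958.8). The lowest HFD mouse was below the lowest RFD mouse at 9 weeks, and 3 of 11 and 5 of 12 HFD mice were above the highest RFD mouse. The log2 fold changes of Ces2e were 0.34 (SE 0.28) and 0.59 (SE 0.23).

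Ces2a at 9 weeks had a median of 94.7 CPM in RFD mice (14.3 to 141.6) and 87.9 CPM in HFD mice (42.1 to 150.9), so the median was not higher on HFD although the fitted log2 fold change was 0.26 (SE 0.33). At 22 weeks the medians were 134.5 CPM (48.4 to 258.6) and 230.2 CPM (35.3 to 514.6), with a log2 fold change of 0.57 (SE 0.40). Of the HFD mice at 22 weeks, 6 of 12 lay above the highest RFD mouse while 7 of 12 lay above the RFD median, so few lay in between. Ces2b, the closest relative of Ces2c, had reads in 5 RFD and 6 HFD mice at 9 weeks and in 8 RFD and 9 HFD mice at 22 weeks, and its log2 fold changes were 1.41 (SE 1.14) and 1.36 (SE 0.77).

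The 4 Ces2 genes together had 544.6 ± 221 CPM (SD, n = 11) in RFD mice and 740.3 ± 327 CPM in HFD mice (SD, n = 11) at 9 weeks. At 22 weeks RFD mice had 698.0 ± 285 CPM (SD, n = 11) and HFD mice 1153 ± 468 CPM (SD, n = 12). The ratio of means was 1.36 and 1.65, below the 3.69 and 4.33 of the Ces1 genes at the same times, and the difference between the families was not tested. The sum over all 9 genes had medians of 612.4 and 1089 CPM at 9 weeks and 847.1 and 1519 CPM at 22 weeks.

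**Figure D3:**
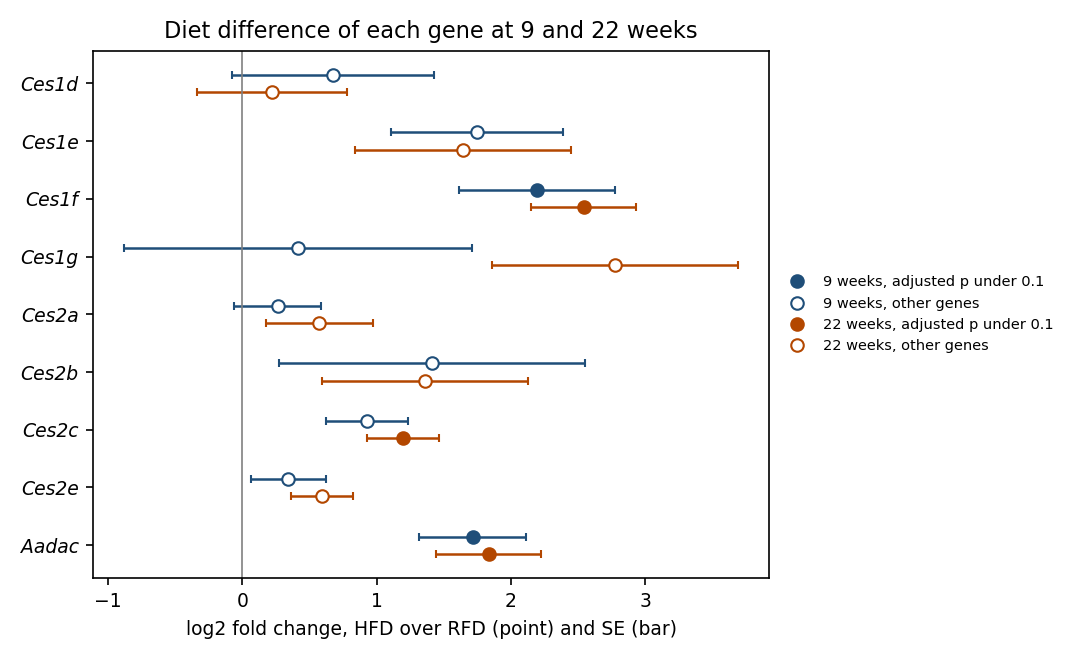
Fitted log2 fold change of HFD over RFD (point) with its SE (bar) for each gene at 9 and 22 weeks, filled where the adjusted p was under 0.1. Ces1f and Aadac were filled at both times and Ces2c at 22 weeks, and the bars of Ces1g and Ces2b at 9 weeks, with SE of 1.30 and 1.14, were the widest.

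The summed tuft markers were lower on HFD than on RFD at 9 weeks, by median. The Paneth markers were higher on HFD, with medians of 3101 CPM in RFD and 29730 CPM in HFD mice at 9 weeks and of 1510 and 11620 CPM at 22 weeks, and so were 5 stem cell markers, with 412.3 and 1315 CPM and then 127.4 and 244.9 CPM. The sum of the 8 goblet cell markers was higher too, with 2544 and 3367 CPM and then 1366 and 2528 CPM. At 9 weeks the medians of Clca1 (225.8 and 181.5 CPM) and Zg16 (748.0 and 356.4 CPM) went the other way. The sum of the 10 enteroendocrine markers was lower, with 439.9 and 255.3 CPM and then 686.7 and 185.4 CPM. Among them Gcg and Ghrl had medians of 0 CPM on both diets at 9 weeks. The diet contrasts were repeated with the tuft, Paneth and enterocyte markers in view, by alternatives that were in part chosen after seeing the data. Without the 8 libraries under 5000 CPM of tuft markers, the log2 fold change at 9 weeks was 1.86 for Ces1f, 1.41 for Aadac and 0.56 for Ces2c. In that fit 0 of 9 members passed the threshold, beside 112 of 14020 genes, against 466 genes in the main fit. With the summed tuft markers as a covariate the log2 fold change was 1.58, 1.06 and 0.81, also with 0 of 9 members, beside 20 of all genes. At 22 weeks, without the 2 such libraries, it was 2.73, 2.14 and 1.18, and with the covariate 2.41, 1.79 and 1.09. There Ces1f, Aadac and Ces2c passed the threshold both ways, beside 343 and 142 of all genes. With the summed Paneth markers as a covariate the log2 fold change was 2.03, 1.57 and 1.02 at 9 weeks, with 0 of 9 members, beside 19 of all genes. At 22 weeks it was 2.53, 1.83 and 1.19, and these 3 genes passed, beside 108 of all genes. With the summed enterocyte markers as a covariate Ces1f, Aadac and Ces2c passed at both times. Of all genes, 346 passed with that covariate at 9 weeks and 119 at 22 weeks. The enterocyte sum holds genes that differed between the diets in both directions. At 9 weeks the median of Rbp2 was 204.8 CPM on RFD and 509.4 CPM on HFD, and that of Mgam 345.9 and 132.0 CPM. The sum is therefore not a measure of enterocyte content alone. The part of the stem cell, goblet and enteroendocrine markers was not tested. Without the 2 libraries under 500000 reads the value of Ces1f at 9 weeks was 2.07 and no longer passed. Leaving out 1 mouse at a time at 9 weeks, Ces1f lost its call in 11 of 22 cases (RFD mice 1, 3, 21, 24 and 84 and HFD mice 5, 6, 8, 50, 70 and 80), with log2 fold changes of 2.04 to 2.55, and Aadac lost it without HFD mouse 6, at 1.52. At 22 weeks Ces1f, Aadac and Ces2c kept theirs in 23 of 23.

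Whether the diet difference itself differed between the feeding times was also fitted. This interaction is made from the diet contrasts that were known when the genes were chosen, so the members' values are a description. No gene of the 14020 passed the threshold for it (quasi-likelihood test of edgeR, Benjamini-Hochberg adjusted, 0% of genes tested), while 451 genes (3.22%), none of them a member, had an unadjusted p under 0.05, and DESeq2 called 1 gene that was not a member. For the members the difference, 22 minus 9 weeks, was 0.14 (95% interval -1.01 to 1.28) for Aadac, 0.38 (-1.01 to 1.77) for Ces1f and 0.30 (-0.53 to 1.13) for Ces2c on the log2 scale. The furthest from 0 was Ces1g with 2.49 (-0.54 to 5.52), a gene of few reads that passed the filter only through HFD mice at 22 weeks. These intervals leave room for a difference between the times in either direction.

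The level within a diet was also compared between the sets. The genes were not chosen by this contrast, but it rests on the same libraries as the diet contrasts. On HFD no member passed the threshold, beside 5.78% of all genes tested (quasi-likelihood test of edgeR, Benjamini-Hochberg adjusted), and 3 of 9 had an unadjusted p under 0.05, beside 16.9% of all genes. DESeq2 called 0 members, beside 1377 of 14020 genes, and limma on log2(TPM + 1) called 3, beside 1554 genes, namely Ces2a, Ces2c and Ces2e. Ces2a passed once the series of mouse numbers was a term of the fit, beside 1153 of all genes. With the tuft marker covariate Ces2a and Ces2e passed, beside 524 of all genes. Ces2a came closest, with a log2 difference of 1.04 (SE 0.38, adjusted p = 0.1307), from a median of 87.9 CPM at 9 weeks to 230.2 CPM at 22 weeks. Ces2c followed with 0.66 (SE 0.29, adjusted p = 0.2227) and Ces2e with 0.53 (SE 0.25, adjusted p = 0.2735). Ces1f with 0.21 (SE 0.47, adjusted p = 0.8788) and Aadac with -0.30 (SE 0.40, adjusted p = 0.7682) differed by less than their SE.

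On RFD no member passed the threshold either, beside 1.46% of all genes tested, with 0 at an unadjusted p under 0.05 (10.2% of all genes). DESeq2 called 0 members beside 436 genes, and limma 0 beside 276 and 187 genes at pseudocounts of 1 and 0.1. The log2 difference was 0.71 (SE 0.39, adjusted p = 0.5603) for Ces2a, -0.17 (SE 0.51, adjusted p = 0.9537) for Ces1f and -0.44 (SE 0.41, adjusted p = 0.8159) for Aadac by the same edgeR test. Enterocyte markers moved with the sets: the median of their sum at 9 weeks was 13950 CPM in RFD and 10130 CPM in HFD mice, against 20520 and 22450 CPM at 22 weeks. With the enterocyte marker sum as a covariate, the difference of Ces2c on HFD was -0.08 in place of 0.66.

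Within each group the members were set against the summed markers of the cells that the sort could hold. Of 40 relations with the 20 enterocyte markers (9 genes and their sum in 4 groups), 31 had a positive Pearson r, with a median of 0.39. Of 40 relations with the 20 tuft markers, 6 had a positive r, with a median of -0.46. Marker sums and members share the total of a library, so a high level of one set of genes lowers the share left for the others.

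After adjustment over both statistics of the 80 relations (permutation tests, 100000 resamples, two-sided, Benjamini-Hochberg), 1 relation had an adjusted p under 0.05, that of Aadac with the tuft markers in RFD mice at 22 weeks. There Spearman's rho was -0.945 (permutation p = 4e-05, adjusted p = 0.0064, n = 11), Pearson's r was -0.775 (permutation p = 0.0076, adjusted p = 0.141), and r was -0.767 with the 2 mice of most extreme marker sum left out. In the same mice Aadac had a Pearson r of -0.127 (permutation p = 0.708, adjusted p = 0.803, and 0.145 with 2 mice left out) and a rho of -0.082 (permutation p = 0.82, adjusted p = 0.869) with the enterocyte markers. Ces2c had a positive r with the enterocyte markers in 4 of 4 groups (0.518 to 0.772, and 0.546 to 0.686 with 2 mice left out in the same way) and a rho of 0.5 to 0.773. The smallest adjusted permutation p among these was 0.141. Ces2a (0.315 to 0.577) and Ces2e (0.384 to 0.611) also had a positive r with the enterocyte markers in 4 of 4 groups. So did the sum over the 9 genes (0.266 to 0.681). For the sum over the 9 genes, r with the tuft markers lay between -0.707 and -0.176 (smallest adjusted permutation p = 0.156), rho between -0.818 and -0.382 (smallest adjusted permutation p = 0.116), and r with 2 mice left out between -0.809 and 0.111, so its sign in RFD mice at 9 weeks rested on those 2 mice.

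**Figure D4:**
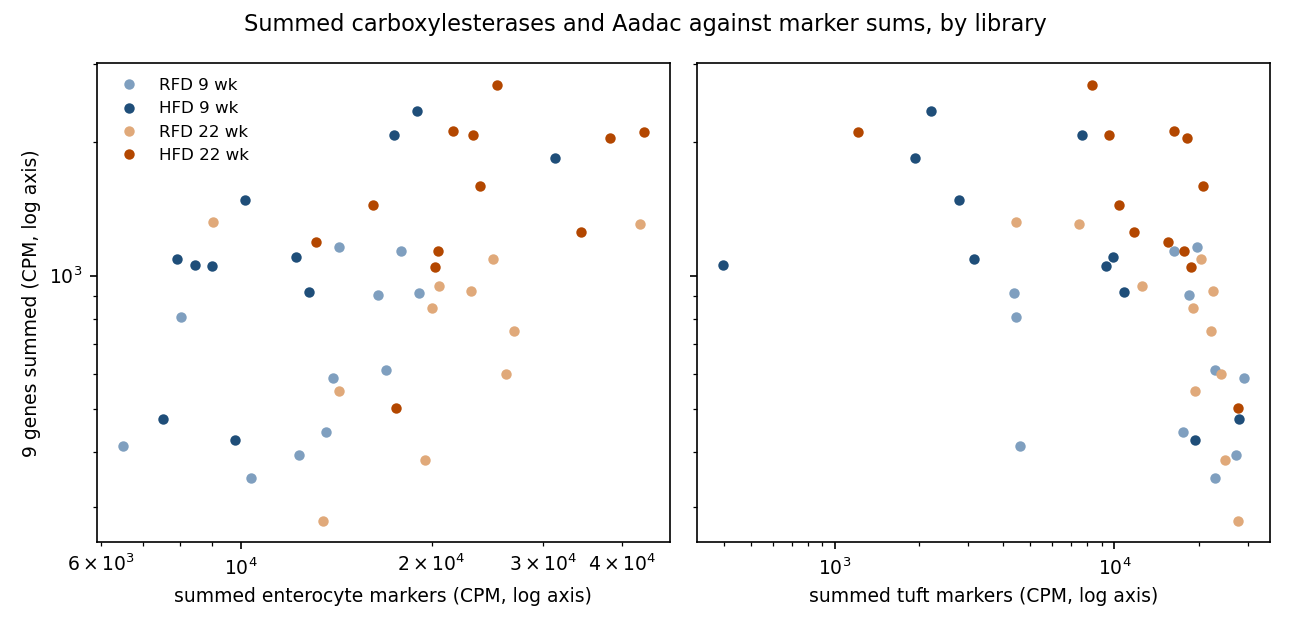
Summed CPM of the 9 genes (log axis) against the summed CPM of 20 enterocyte markers (left) and 20 tuft markers (right, both log axes), with each point 1 library coloured by diet and feeding time. Within the groups the Pearson r of the sum with the tuft markers lay between -0.707 and -0.176, and the library lowest in tuft markers, at 398 CPM, was an HFD mouse at 9 weeks.

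Across the 45 libraries the 9 genes varied together to different degrees. With the mean of each group subtracted, all 36 pairs had a positive Spearman's rho of log2 CPM, between 0.059 and 0.827 with a median of 0.323, given as a description since both genes of a pair share the library and its depth. The highest was Ces2c with Ces2e (0.827), neighbours in 1 cluster, and Ces2a with Ces2c followed the same pattern (0.774). Aadac, on another chromosome, had 0.766 with Ces2e and 0.626 with Ces1f. The lowest values were those of Ces1e with Ces2c (0.059), Ces1d with Ces2b (0.065) and Ces2b with Ces2c (0.069), each with a gene of few reads.

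**Figure D5:**
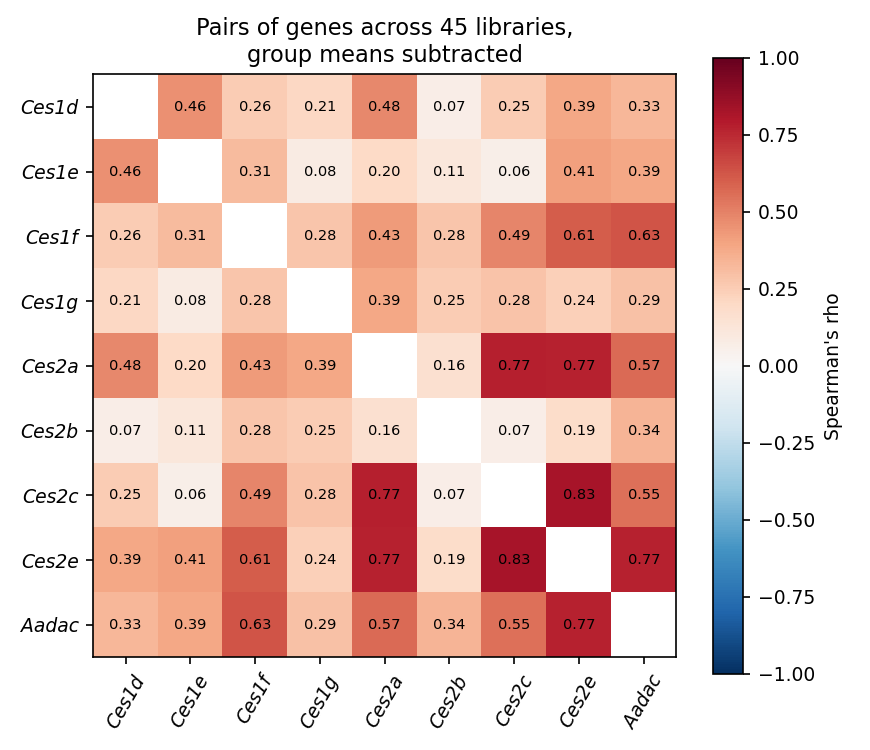
Spearman's rho of log2 CPM between each pair of the 9 genes over 45 libraries, with group means subtracted. The block of Ces2a, Ces2c, Ces2e, Aadac and Ces1f held the highest values, up to 0.827 for Ces2c with Ces2e.

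The genes whose levels followed the members most closely, by Spearman's rho over the same 45 libraries, again with group means subtracted, and among 10069 genes with a mean of at least 5 CPM, were searched by a fixed rule that names 3 per member. For Ces2c they were Alpi, the intestinal alkaline phosphatase of the enterocyte brush border (0.893), the peroxide-degrading catalase Cat (0.85) and the cytochrome P450 gene Cyp2d26 (0.833). For Ces2e they were the arginase gene Arg2 (0.893), the diamine oxidase gene Aoc1 (0.879) and the bilirubin glucuronosyltransferase gene Ugt1a1 (0.858). For Aadac they were Arg2 (0.867), the peroxiredoxin gene Prdx1 (0.845) and the microsomal glutathione transferase gene Mgst1 (0.842).

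For Ces1f they were the monoamine oxidase gene Maoa (0.787), Cyp2c68 (0.781) and Arg2 (0.777), and for Ces2a Gstm3 (0.787), Maob (0.776) and Ces2c (0.774). Only Alpi of these was on the enterocyte marker list. The low-count genes had weaker partners, with a highest rho of 0.710 for Ces1d (Nedd9), 0.640 for Ces1e (Rpl4), 0.609 for Ces2b (Brip1) and 0.505 for Ces1g (Prpf31).

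Of 12 other mouse carboxylesterase genes, all in the tables, only Ces2g had enough reads to be tested. Its median at 9 weeks was 31.1 CPM in RFD and 67.6 CPM in HFD mice, and 16.7 and 48.3 CPM at 22 weeks. The log2 fold change of Ces2g was 0.67 (SE 0.54, adjusted p = 0.5348 by edgeR) and 0.88 (SE 0.49, adjusted p = 0.5513), and it did not pass the threshold. Of 8 Aadac relatives 2 were tested, Nceh1 and Afmid, and neither passed, with 1 at an unadjusted p under 0.05 at each time. Nceh1, a cholesteryl ester hydrolase close to Aadac, had log2 fold changes of 1.85 (SE 0.71, adjusted p = 0.1666) and 1.35 (SE 0.43, adjusted p = 0.2127) by edgeR's quasi-likelihood test.

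Hydrolases of other families that act on lipid esters or drugs were counted as lists. Of 16 neutral lipid and retinyl ester hydrolases tested, 3 were lower on HFD at 9 weeks and none passed at 22 weeks, beside 1.33% and 0.357% of all genes tested as lower. An unadjusted p under 0.05 was found for 7 and 4 of the 16, beside 18% and 10.3% of all genes. The 3 genes were Abhd5, the activator of adipose triglyceride lipase (log2 fold change -0.84, SE 0.25), the phospholipase gene Ddhd2 (-1.02, SE 0.25) and the hepatic lipase gene Lipc (-3.50, SE 1.02), with adjusted p of 0.0919, 0.0541 and 0.0807 by edgeR. Lipc was near the floor, with a median of 0.99 CPM on RFD and 0 on HFD. The list's median log2 fold change was -0.16 at 9 weeks and 0.03 at 22 weeks. Of 12 other drug and ester hydrolases tested, none passed at either time (4 and 3 with an unadjusted p under 0.05, against the same background), and their median was 0.54 and 0.34.

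Genes that rebuild and package absorbed fat, the step that follows hydrolysis in enterocytes, were compared as a further list. Of 22 tested, 2 were higher on HFD at 9 weeks and 3 at 22 weeks, beside 2% and 0.435% of all genes tested, and none was lower. At an unadjusted p under 0.05 there were 6 and 7 of the 22, beside 18% and 10.3% of all genes. Rbp2, the retinol-binding protein of enterocytes, had log2 fold changes of 1.32 (SE 0.31, adjusted p = 0.0432) and 1.58 (SE 0.29, adjusted p = 0.00755). Plin2, a lipid droplet coat protein, had 0.94 (SE 0.23, adjusted p = 0.0519) and 1.48 (SE 0.35, adjusted p = 0.0492), and Mttp, which loads lipid onto chylomicrons, passed at 22 weeks with 1.04 (SE 0.25, adjusted p = 0.0614), all by edgeR's quasi-likelihood test. The median over the list was 0.00 at 9 weeks and 0.26 at 22 weeks.

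Of 14 nuclear receptors and transcription factors known to act on carboxylesterase genes, 1 passed the threshold as higher at 9 weeks and none at 22 weeks, beside 2% and 0.435% of all genes tested. With an unadjusted p under 0.05 there were 3 and 5 of the 14, beside 18% and 10.3% of all genes. The intestinal homeobox factor Cdx2 differed by 0.90 on the log2 scale (SE 0.21, adjusted p = 0.0472, edgeR) at 9 weeks and 0.67 (SE 0.37, adjusted p = 0.5442) at 22 weeks. The list's median was 0.23 and 0.39.

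The promoters of the members were searched for short motifs of such factors. RefSeq promoters (GRCm38.p6), from 250 bases before to 50 after the start, were found for 6 of the 9 genes, namely Ces1e, Ces1g, Ces2a, Ces2c, Ces2e and Aadac. The letters AGGTCA of the nuclear receptor half-site, on either strand, were in 1 of the 6 (Ces2a) and in 16.3% of 32851 promoters. The GATA letters AGATAA were in 2 of the 6 (Ces1e and Ces1g) and in 11.2% of all. TATAAA was in 1 of the 6 (Ces1g) and in 13.6% of all, these motifs also being counted on either strand. The HNF1 half-site letters GTTAAT and the HNF4 letters CAAAGTCCA were in 0 of the 6, beside 7.10% and 0.47% of all promoters. The direct repeat of the nuclear receptor half-site and the full HNF1 palindrome, which contain the half-sites, were also in 0 of the 6, beside 0.04% and 0.01%. Of the 3 genes that passed the diet threshold at 22 weeks, Ces2c (250 bases before the start at chr8:104846818-104847067) and Aadac (chr3:60031538-60031787) held none of these letters in this window, and Ces1f had no entry. The start that RefSeq gives for Aadac lies inside the gene as GENCODE M21 places it, so this window is not upstream of the GENCODE start. For Ces1g, on the minus strand, the window at chr8:93337210-93337459 overlaps the gene, which GENCODE M21 ends at 93337308. Its TATAAA match, 26 bases before the RefSeq start, lies inside the gene. The match is on the opposite strand, so the strand of the gene reads TTTATA there.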

How the data were processed

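Sorted tuft cells of 45 mice were sequenced after Smart-seq2 amplification and Nextera XT tagmentation. The authors trimmed reads with Cutadapt 1.15, aligned them with STAR 2.6.0 and quantified genes with RSEM, and the submitters' notes give GRCm38. The deposited tables hold RSEM expected counts per gene (8.79% of those above 0 were not whole) and deposited TPM, which RSEM scales by transcript length and library total. In each kind of file 24 columns belong to no sample listed here and were not used.

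Expected counts were rounded, and genes with more than 5 reads in at least 6 libraries were kept, 1 gene per symbol. The authors' reweighting of counts by estimated cell type shares was not repeated. TMM scaling and the quasi-likelihood test of edgeR 4.0.16 (R 4.3.3) with Benjamini-Hochberg adjustment compared the diets within each feeding time, and a fit of all 4 groups compared the sets and the interaction. The script was tested on simulated counts. Alternatives were DESeq2 1.42.0, limma 3.58.1 on log2(TPM + 1) and log2(TPM + 0.1), other scaling and rounding, no filter, fewer libraries, the series of mouse numbers as a batch, and marker sums as covariates. The Paneth covariate and the exclusion under 5000 CPM of tuft markers were chosen after seeing the data.

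Groups come from the sample titles. The genes and lists were chosen with earlier results of these data known. All 9 genes are named throughout, other genes from fixed lists where they passed the threshold or a sentence turns on them. The labels do not name the animals. Distinct mouse numbers were taken as separate mice, so p-values measure the spread between these libraries. The paper's methods describe mice that shared cages and were killed cage by cage over consecutive days. The labels name no cage, so cage was not a term of any fit and cage mates were treated as separate. Reads after PCR without molecular identifiers are not independent molecules, and floors of 3 reads cover counting error only. The mouse numbers form series (1 to 8, multiples of 10, others between 21 and 64), with 2 libraries in none. Sequences were compared with biopython 1.88.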

Additional observations from a re-analysis of the deposited data

How the results depend on the processing

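At 9 weeks the main settings called 466 genes and 2 members as higher. The counts were 1219 genes and 4 members with DESeq2, 1698 and 4 without a filter on low counts, 9 and 0 with limma on log2(TPM + 1), 5 and 0 with limma on log2(TPM + 0.1), 290 and 1 without libraries under 500000 reads, 20 and 0 with the tuft marker covariate, 19 and 0 with the Paneth marker covariate, and 112 and 0 without libraries under 5000 CPM of tuft markers. Ces1f and Aadac were called with DESeq2-style size factors in edgeR (480 genes), counts rounded down (467) and the number series as a batch term (456). With the enterocyte marker covariate (346 genes) Ces1f, Aadac and Ces2c were called. Leaving out 1 mouse at a time gave 59 to 1996 genes and 0 to 4 members, with 0 members without HFD mouse 6. At 22 weeks the main settings called 111 genes and 3 members, against 301 genes with DESeq2, 435 without a filter, 51 and 31 with the 2 limma fits, 185 with number series as a batch term and 343 without libraries under 5000 CPM of tuft markers. There 2 members were called with limma on log2(TPM + 1), which lost Ces2c, and 1 with limma on log2(TPM + 0.1), which lost Ces1f and Ces2c, and leaving out 1 mouse gave 58 genes without RFD mouse 10 to 667 genes without RFD mouse 1, and 3 to 4 members. Leave-one-out aside, 343 values of single genes stayed on the same side, 13 gained a call, 14 lost one, 15 changed sign and 7 moved by more than 1 SD.

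For the interaction, DESeq2 called 1 gene and the fit without a filter 65 against 0. For the set contrast on RFD (204 genes), DESeq2 called 436, no filter 916, the number series 423, the enterocyte covariate 74 and the tuft covariate 520. For the set contrast on HFD (810 genes and 0 members), DESeq2 called 1377 and limma on log2(TPM + 1) 1554 with 3 members. The fit by limma on log2(TPM + 0.1) called 1193 with 2 members, and the number series 1153 with 1 member. The enterocyte covariate called 104, the tuft covariate 524 with 2 members and the Paneth covariate 378. Without libraries under 5000 CPM of tuft markers 234 were called. Under DESeq2-style size factors in edgeR the share of called genes that was higher was 43.9% of 817 on HFD and 56.5% of 239 on RFD, against 60% and 67.2%. On the TPM scale the median over all genes shifted by 0.22 to 0.56 in the set contrasts, so set differences on that scale are relative to it. The causes were not tested.

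Some signs reversed. At 9 weeks Ces1g was -0.97 without libraries under 500000 reads, -0.67 with the number series, -0.40 with the tuft covariate, -0.89 without libraries under 5000 CPM of tuft markers and -0.91 without HFD mouse 50 (up to 1.23 when other mice were left out). Ces1d was -0.96 with the tuft covariate, -0.45 with the Paneth covariate and -0.8996 without libraries under 5000 CPM of tuft markers, where Ces2a was -0.0747. At 22 weeks Ces1d was -0.27 and -0.77 with the 2 limma fits, -0.0454 with the Paneth covariate and -0.18 without HFD mouse 7 (up to 0.71 otherwise). The set difference of Ces2c on HFD was -0.083 with the enterocyte covariate. The cause was not tested.

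No paired analysis was possible because the diets share no mouse numbers within a set. Between the sets 16 numbers recur, but the correlation of their deviations was -0.42 to 0.47 (median -0.12), over 0.1 in 3 of 16, and 1 of 16 correlated best with its own number, so the numbers were not taken as pairs. With mouse number as a replicate block the interaction was -1.0039 for Ces1f, -0.20 for Ces2c and -0.48 for Aadac, and 14 genes on RFD and 5 on HFD were called between the sets, none of them a member.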
